A study of Mus musculus with 8 samples.

Results

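The 41 genes described here encode the proteins that make sterols and fatty acids and that move cholesterol out of the cell, together with the transcription factors that control them. They were chosen by gene symbol from the 18635 genes of the expression table, and all 41 passed the filter on low values. Groups were formed by role, with 5 genes of the SREBP system, 7 of the mevalonate and isoprenoid steps, 11 of the steps from squalene to cholesterol, 10 of fatty acid synthesis, desaturation and elongation, and 8 of the LXR, efflux and sterol trafficking group.

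PHGDH catalyzes the first step of serine synthesis from a glycolytic intermediate, and the study asked what its loss does to macrophages that take on a tumor-supporting state. Tumor-educated macrophages (TEMs) were bone marrow-derived macrophages (BMDMs) exposed for 24 h to AE17-TCM, a medium conditioned by AE17 mouse mesothelioma cells. The control TEMs (n = 4) carried *Phgdh* fl/fl alleles without Cre, and the PHGDH-deficient TEMs (n = 4) carried the same *Phgdh* fl/fl alleles with *Cx3cr1*-Cre, a Cre recombinase driven from the *Cx3cr1* locus. The labels give no age for the mice and do not say which samples of the same number, if any, share an origin. BMDMs without TCM were not analysed here, so that each value compares the genotypes under TCM only, and a control with Cre but without the floxed alleles was not analysed here either, so that the Cre allele and the deletion cannot be told apart.

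Cells sense their sterol content in the endoplasmic reticulum. When sterols are scarce, SCAP escorts the SREBP transcription factors to the Golgi, where they are cleaved and then switch on the genes of sterol and fatty acid synthesis, while INSIG proteins hold the SCAP and SREBP complex back when sterols are abundant. Oxysterols, made as sterols accumulate, activate the liver X receptors (LXRs), which switch on genes of cholesterol efflux and of *Srebf1*. In macrophages, which take up cholesterol with the debris they engulf, both systems are active.

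Whole reads recovered from the table numbered between 38219563 and 47027420 per sample, and the 10 most abundant genes took 11.9% to 12.8% of them. The first principal component (44.8% of the variance) separated the genotypes, and the second (13.2%) set replicates 1 and 4 of both genotypes apart from replicates 2 and 3. The targeted gene *Phgdh* had normalized counts (reads divided by a size factor per sample) of 119, 129, 117 and 105 in the control TEMs and of 32.6, 35.3, 14.2 and 26.3 in the PHGDH-deficient TEMs, a log2 fold change of -2.15 (SE 0.21, limma adjusted p = 5.1e-08), so that some reads of it remained in each deficient sample. *Cx3cr1*, the gene that carries the Cre, was also lower (-0.70, limma adjusted p = 1.9e-09). The study gives the PHGDH-deficient mice as *Cx3cr1* cre/+ and the controls as *Cx3cr1* +/+. All 10 macrophage markers looked up were present, with a summed normalized count of 1048960 to 1139000 in the control and 1028790 to 1105200 in the deficient TEMs. Of these markers, 5 were lower (*Adgre1*, *Itgam*, *Fcgr1*, *Cd14* and *Cx3cr1*) and 1 was higher (*Mrc1*) at a limma adjusted p under 0.05. That is 60% of the 10 markers, against 50.1% of the tested genes with a mean normalized count of 200 or more. Summed counts of the markers of other cells were far below those of the macrophage markers. The sum over the 5 of 7 dendritic cell markers in the table was 103 to 147 in the control and 139.5 to 170.2 in the deficient TEMs, that over 2 of 6 B cell markers 197 to 253 and 131 to 167, and that over 4 of 9 markers of stroma and AE17 cells 24.8 to 31.0 and 20.8 to 45.7. Of 9 neutrophil markers only *S100a8* was among the genes of the table. It lay between 467 and 575 in the control and between 576 and 631 in the deficient TEMs, and *Cd2*, the only one of 7 T and NK cell markers in the table, at 10.1 or below in each sample. *S100a8* was higher in the deficient TEMs (log2 fold change 0.23, limma adjusted p = 0.0044). The B cell marker *Cd79b* was lower (-0.63, limma adjusted p = 2.9e-05), and the other tested markers of these cells did not pass. Because whole cultures were sequenced, fewer cells of a type and less RNA per cell cannot be told apart in any value given here, and the part of the marker differences in the results was not tested.

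Most genes of the sterol and fatty acid group differed little between the genotypes. With limma, 14 of the 41 genes (34.1%) had an adjusted p under 0.05, against 41% of the 13629 genes tested in the whole table and 50.1% of the tested genes with a mean normalized count of 200 or more, so that the share was not above the background. In the PHGDH-deficient TEMs 6 genes were higher (background 20.8%) and 8 lower (background 20.3%). The median log2 fold change of the 41 genes was -0.0095, close to the median of all tested genes (-0.0018). In 11 of the 41 genes the control and deficient samples were fully separated, against 36.7% of all tested genes. The 6 higher genes were *Fasn* (0.26), *Mvd* (0.22), *Acaca* (0.18), *Lss* (0.15), *Soat1* (0.13) and *Insig1* (0.13). The 8 lower genes were *Scd1* (-1.05), *Apoe* (-0.65), *Scd2* (-0.34), *Sqle* (-0.17), *Abca1* (-0.11), *Elovl1* (-0.099), *Srebf1* (-0.092) and *Mylip* (-0.074). Only *Scd1* and *Apoe* lay outside the range from -0.38 to 0.47 that holds the middle of all tested genes between the 5th and 95th percentiles.

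**Figure D1:**
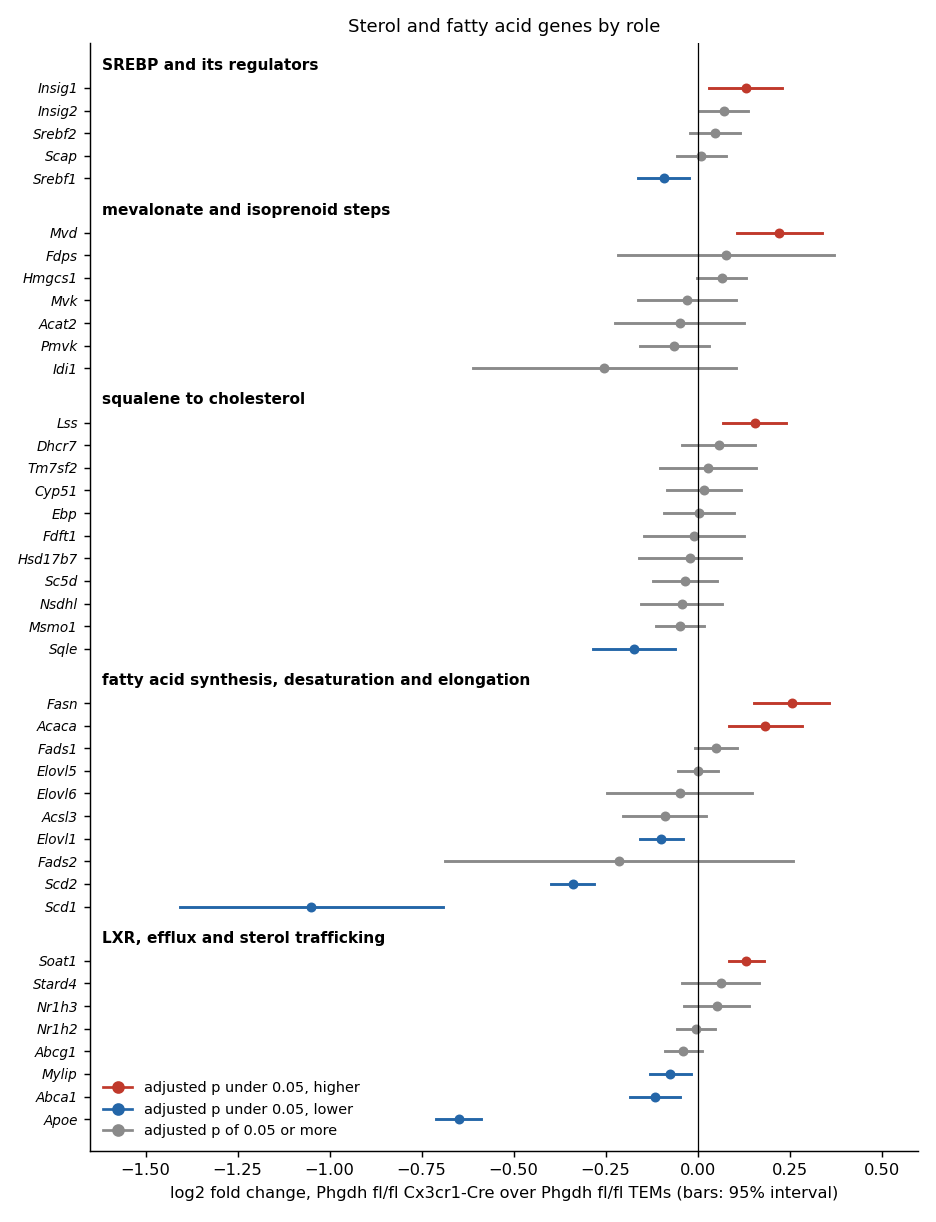
Log2 fold change (horizontal axis) of the 41 genes in PHGDH-deficient over control TEMs, grouped by role, as points with 95% intervals from limma (4 samples per genotype). Red marks the 6 genes with an adjusted p under 0.05 that were higher, blue the 8 that were lower and grey the other 27, and *Scd1* (-1.05) and *Apoe* (-0.65) lie farthest from 0.

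The genes that did not pass were bounded closely where they had enough reads. For 24 of the 27 genes with an adjusted p of 0.05 or more, the whole 95% interval of the log2 fold change lay within 0.25 of 0. Among the 18 of them with a mean normalized count of 500 or more, the outermost bounds were -0.20 (*Acsl3*) and 0.17 (*Stard4*). The widest intervals belonged to *Fads2* (-0.69 to 0.26), *Idi1* (-0.61 to 0.10) and *Fdps* (-0.22 to 0.37), which had between 24 and 84 reads in each sample, so that a moderate difference was not detectable in them at this depth.

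Per exon length, the levels of the 41 genes spanned a wide range in both genotypes. *Apoe*, the apolipoprotein that macrophages secrete to carry cholesterol away, had the highest level, at 1606 ± 52.0 FPKM in the control TEMs and 1034 ± 43.5 FPKM in the deficient TEMs (SD, n = 4 each). *Mylip* (42.5 ± 1.58 and 40.8 ± 0.539 FPKM), *Soat1* (38.1 ± 0.630 and 42.2 ± 1.22 FPKM) and *Abca1* (26.3 ± 1.49 and 24.5 ± 0.990 FPKM) followed in the control TEMs. In the deficient TEMs *Nr1h2* (25.7 ± 0.209 and 25.9 ± 0.245 FPKM) had a higher mean than *Abca1*. The order of *Mylip* and *Soat1* was reversed between the genotypes, and their levels in the deficient TEMs lay within the spread between samples of each other. At the low end, *Fdps* (0.383 ± 0.0511 and 0.407 ± 0.0458), *Idi1* (0.381 ± 0.0812 and 0.318 ± 0.0367), *Scd1* (0.300 ± 0.0466 and 0.143 ± 0.0118) and *Fads2* (0.297 ± 0.107 and 0.249 ± 0.0444) all had less than 1 FPKM. Among the desaturases of stearoyl-CoA, *Scd2* (18.6 ± 0.488 FPKM in the control TEMs) stood far above *Scd1*, and the low level of *Fdps* and *Idi1* carries the uncertainty of the counting described with these genes.

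**Figure D2:**
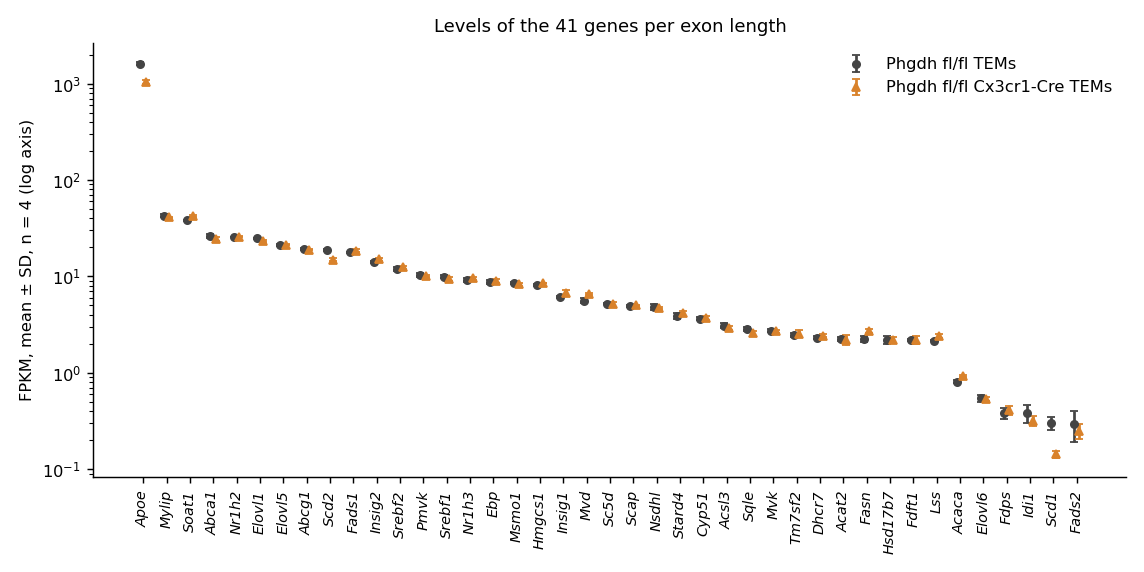
FPKM (vertical log axis) of each of the 41 genes, ordered by the level in the control TEMs, as means with SD bars over 4 samples for control (grey circles) and PHGDH-deficient TEMs (orange triangles). *Apoe* stands above all others at 1606 and 1034 FPKM, and the visible gaps between the genotypes are those of *Apoe*, *Scd2* (18.6 and 14.9) and *Scd1* (0.300 and 0.143).

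The SREBP system showed 1 higher and 1 lower gene out of 5 (40%, against 41% of all tested genes), both by small amounts. *Srebf1*, which encodes SREBP-1 and drives mainly fatty acid synthesis (ENSMUSG00000020538, chr11:60199089-60222581, minus strand of mm10), had normalized counts of 2512, 2444, 2336 and 2378 in the control and 2191, 2337, 2348 and 2196 in the deficient TEMs. The highest deficient samples exceeded the lowest control sample, so that the groups overlapped. Its log2 fold change was -0.092 (SE 0.033, limma adjusted p = 0.0305). The gene-level counts do not separate the isoforms of *Srebf1*. *Srebf2*, which encodes SREBP-2 and drives mainly sterol synthesis, had 3931, 3730.4, 3465 and 3653 in the control and 3792, 3948, 3813 and 3704 in the deficient TEMs. Its groups overlapped, and the log2 fold change of 0.047 did not pass (adjusted p = 0.272, 95% interval -0.022 to 0.12). *Insig1*, which retains the SCAP and SREBP complex and is itself an SREBP target, had 781, 844, 821 and 829 in the control and 839, 962, 857 and 929.8 in the deficient TEMs. The lowest deficient sample lay just under the highest control sample, and the log2 fold change was 0.13 (SE 0.048, limma adjusted p = 0.0347). For *Insig2*, a second retention protein, the counts were 2145, 2168, 2181 and 2055 in the control and 2269, 2173, 2196 and 2341 in the deficient TEMs, which overlapped, and 0.071 on the log2 scale did not pass (adjusted p = 0.0875). *Scap*, the escort protein, differed by 0.0098 (95% interval -0.057 to 0.077). At 97% identity or more over at least 75 bases, 18.9% of its transcript is shared with 1 other gene. That gene had mean normalized counts of 0.517 in the control and 2.02 in the deficient TEMs. For *Insig1*, 7.01% is shared with the pseudogene *Gm37784*. The calls of *Srebf1* and *Insig1* lay close to the threshold and were each lost in 5 of 15 other settings. *Srebf1* was lost with scaling to the total of reads (adjusted p up to 0.105 over the settings) and without control replicate 1 or 2 or deficient replicate 1 or 4. *Insig1* was lost without control replicate 1, 3 or 4 or deficient replicate 2 or 4 (adjusted p up to 0.148).

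*Srebf1* and *Srebf2* were also set against each other within each sample. The ratio of their normalized counts was 0.639, 0.655, 0.674 and 0.651 in the control samples and 0.578, 0.592, 0.616 and 0.593 in the deficient samples, so that the groups did not overlap. The difference of the mean log2 ratios was -0.14. By exact permutation (two-sided) p was 0.0286, the lowest value possible with 4 samples per genotype, and 0.1 after adjustment over the 7 paralog ratios examined. The adjusted value is fixed by the design here, since it is 0.1 whenever 2 of the 7 ratios reach the lowest p. For *Insig1* over *Insig2* the groups overlapped, with a mean log2 ratio of -1.38 in the control and -1.32 in the deficient TEMs (exact permutation p = 0.4, adjusted p = 0.429).

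Of the 18 enzymes that lead from acetyl-CoA to cholesterol, 2 were higher and 1 lower (16.7%, against 41% of all tested genes). The other 15 did not pass. The summed normalized count of the 18 was 12683 ± 76.5 in the control TEMs and 12735 ± 221 in the deficient TEMs (SD, n = 4 each), a ratio of 1.004. Of the 7 genes of the mevalonate and isoprenoid steps, 1 passed. *Mvd*, the decarboxylase that makes isopentenyl diphosphate (ENSMUSG00000006517, chr8:122433601-122443422, minus strand), had 430.4, 429, 479 and 467 in the control and 519.8, 530.0, 509 and 544 in the deficient TEMs. All deficient samples lay above all control samples, with a log2 fold change of 0.22 (SE 0.055, limma adjusted p = 0.00273). *Hmgcs1*, the synthase that makes HMG-CoA, also had groups that did not overlap (1551 to 1634 against 1668 to 1707) but did not pass (0.065, adjusted p = 0.111). The values were -0.028 for the mevalonate kinase *Mvk*, -0.063 for the phosphomevalonate kinase *Pmvk*, -0.048 for the thiolase *Acat2*, 0.077 for the farnesyl diphosphate synthase *Fdps* and -0.25 for the isomerase *Idi1*, with adjusted p from 0.253 to 0.763. Several of these genes share stretches with copies or with overlapping genes, which the counting could not always tell apart. At 97% identity or more over at least 75 bases, 91.4% of the transcript of *Fdps* is shared with 2 other genes, *Gm43738* among them. The share is 65.6% for *Acat2*, with 2 other genes, *Acat3* among them, and 33.3% for *Idi1*, with 3 other genes, *Gm13502* among them. For *Hmgcs1* it is 16.2%, with the antisense gene *Gm48342*. The values of these 4 genes are therefore uncertain, as are those of other genes given with a large shared stretch, such as *Fdft1* and *Acaca*. Mean normalized counts in the control and deficient TEMs were 7.85 and 5.43 for *Acat3* and 1.19 and 1.25 for *Gm48342*.

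Between squalene and cholesterol, the neighbouring enzymes *Sqle* and *Lss* changed in opposite directions. *Sqle*, the epoxidase that turns squalene into its epoxide (ENSMUSG00000022351, chr15:59315077-59331192, plus strand), had 721, 711, 674 and 647 in the control and 582, 643, 644 and 573 in the deficient TEMs. The deficient samples all lay below the control samples, the nearest being 643.5 against 647, and the log2 fold change was -0.17 (SE 0.054, limma adjusted p = 0.0129). *Lss*, which closes the epoxide to lanosterol (ENSMUSG00000033105, chr10:76531588-76557138, plus strand), had 1021, 1019.8, 1009 and 978 in the control and 1134, 1177, 1046 and 1129 in the deficient TEMs. Here the deficient samples all lay above the control samples, and the gene rose by 0.15 (SE 0.041, limma adjusted p = 0.00454) on the log2 scale. An antisense gene covers 7.52% of the *Lss* transcript. Without deficient replicate 4, *Sqle* no longer passed (log2 fold change -0.14, adjusted p = 0.0564). The other 9 genes of this stretch did not pass. *Fdft1*, the squalene synthase, differed by -0.0095, and 54.7% of its transcript is shared with 2 other genes, *Gm6781* among them. For the enzymes that remove the methyl groups of lanosterol the values were 0.018 for *Cyp51*, -0.048 for *Msmo1*, -0.043 for *Nsdhl* and -0.020 for *Hsd17b7*. For the enzymes that then set the double bonds of the rings they were 0.027 for *Tm7sf2*, 0.0048 for *Ebp*, -0.035 for *Sc5d* and 0.057 for *Dhcr7*. Among the sterol enzymes that did not pass, the 8 with a mean normalized count of 500 or more had 95% intervals inside -0.16 (*Pmvk*) to 0.16 (*Dhcr7*).

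Of the 10 genes of fatty acid synthesis, desaturation and elongation, 2 were higher, 3 were lower and 5 did not pass. That is 50% past the threshold, against 41% of all tested genes and 50.1% of those with a mean normalized count of 200 or more. *Acaca* and *Fasn* rose. The stearoyl-CoA desaturase genes *Scd1* and *Scd2*, whose products put the first double bond into the chain, and the elongase gene *Elovl1* fell. *Acaca*, the acetyl-CoA carboxylase that makes malonyl-CoA (ENSMUSG00000020532, chr11:84129672-84401651, plus strand), had 612, 597, 569 and 622 in the control and 668, 667, 709 and 682 in the deficient TEMs. *Fasn*, the fatty acid synthase (ENSMUSG00000025153, chr11:120805846-120824547, minus strand), had 1178, 1028, 1037 and 995 in the control and 1358, 1239, 1209.8 and 1248 in the deficient TEMs. For both genes each deficient sample lay above each control sample. The log2 fold changes were 0.18 (SE 0.048, limma adjusted p = 0.00374) for *Acaca* and 0.26 (SE 0.049, limma adjusted p = 0.000237) for *Fasn*. A pseudogene, *Gm5182*, shares 64.3% of the *Acaca* transcript and had a mean normalized count of 3.41 in the control and 5.33 in the deficient TEMs. The value of *Acaca* is therefore uncertain too.

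*Scd1* (ENSMUSG00000037071, chr19:44394455-44407879, minus strand) showed the largest change of the 41 genes. Its normalized counts were 59.5, 70.9, 51.7 and 72.5 in the control and 30.4, 31.2, 26.4 and 32.1 in the deficient TEMs. The highest deficient sample lay far below the lowest control sample, and the mean fell from 63.6 ± 9.85 to 30.0 ± 2.49 (SD, n = 4 each), or -1.05 (SE 0.17, limma adjusted p = 4.1e-05) on the log2 scale. Between 26 and 77 reads per sample stood behind these values, and the 95% interval was -1.41 to -0.69. *Scd2* (ENSMUSG00000025203, chr19:44293674-44306864, plus strand), the desaturase gene with most of the reads, had 4489, 4411, 4249.5 and 4479 in the control and 3429, 3545, 3587 and 3369.9 in the deficient TEMs. All deficient samples were lower, with a log2 fold change of -0.34 (SE 0.028, limma adjusted p = 4.4e-09) and a 95% interval of -0.40 to -0.28. The ratio of *Scd1* to *Scd2* was 0.0133, 0.0161, 0.0122 and 0.0162 in the control and 0.00886, 0.00880, 0.00737 and 0.00952 in the deficient samples, which did not overlap. The difference of the mean log2 ratios, -0.73, had an exact two-sided permutation p of 0.0286, the smallest this design allows, and 0.1 after adjustment over the 7 ratios, a value fixed by the design as for *Srebf1* over *Srebf2*.

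Of the 6 genes of further desaturation, elongation and activation, 1 passed, where 41% of all tested genes did. *Fads1*, the delta-5 desaturase of polyunsaturated fatty acids, had 3754, 3641, 3671 and 3706 in the control and 3719.8, 3741, 3872 and 3960.2 in the deficient TEMs. For *Fads2*, the delta-6 desaturase, the values were 42.8, 26.7, 37.2 and 63.0 in the control and 27.0, 34.3, 37.6 and 41.8 in the deficient TEMs. Both overlapped between the genotypes and neither passed (log2 fold change 0.050, adjusted p = 0.153 and -0.21, adjusted p = 0.479). Likewise *Elovl5*, an elongase of polyunsaturated fatty acids, had 3232, 3163, 3215 and 3285 in the control and 3225, 3223, 3262 and 3188 in the deficient TEMs, and its 95% interval of -0.053 to 0.054 lay close around 0. *Elovl6*, which elongates palmitate, had 167, 151, 151 and 137 in the control and 149.6, 148, 136 and 152 in the deficient TEMs, with -0.049 on the log2 scale (adjusted p = 0.713), and 15.1% of its transcript is shared with other genes, the pseudogene *Gm11295* among them. *Elovl1*, which elongates saturated and monounsaturated very long chains, was lower without overlap (2833 to 2982 against 2669 to 2811), by a log2 fold change of -0.099 (SE 0.029, limma adjusted p = 0.0082). *Acsl3*, which activates fatty acids to their CoA esters, differed by -0.090 (adjusted p = 0.2). The ratios *Fads1*/*Fads2* and *Elovl6*/*Elovl5* overlapped between the genotypes (exact permutation p = 0.371 and 0.429, adjusted p = 0.429 for both).

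**Figure D3:**
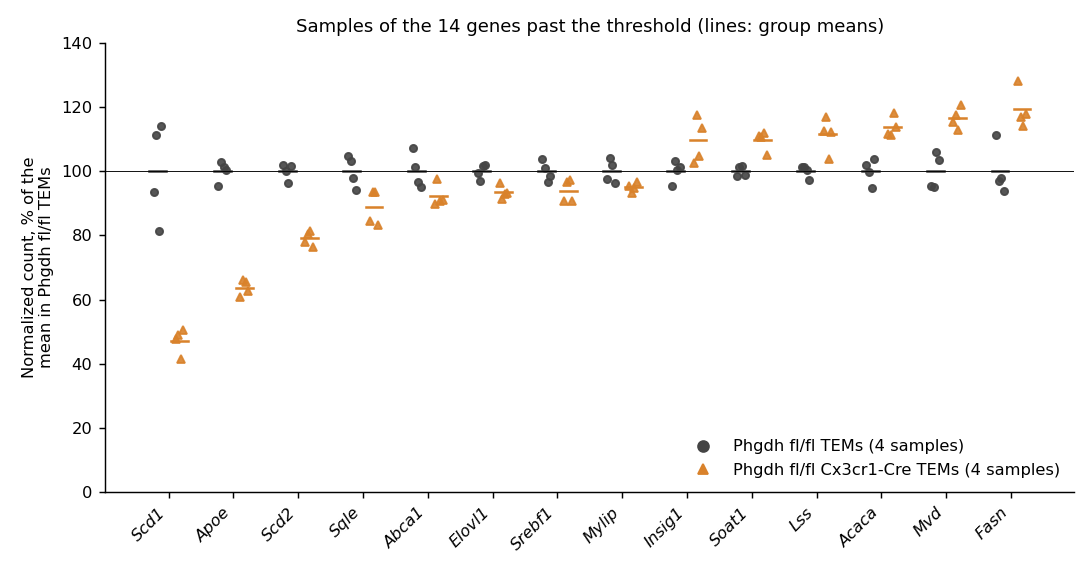
Normalized count of each sample as a percentage of the gene's mean in control TEMs (vertical axis, from 0) for the 14 genes with an adjusted p under 0.05, with control samples as grey circles, PHGDH-deficient samples as orange triangles and group means as lines. The deficient means lie at 47.2% of the control mean for *Scd1*, at 63.7% for *Apoe* and at 79.0% for *Scd2*, and that of *Fasn* at 119%.

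In the group of LXR, efflux and trafficking genes, *Apoe* carried the main change. The normalized counts of *Apoe* (ENSMUSG00000002985, chr7:19696109-19699188, minus strand) were 141746, 153123, 150733 and 149444 in the control and 90399, 98403, 97447 and 93074 in the deficient TEMs. Every deficient sample lay far below every control sample, with means of 148761 ± 4919 and 94831 ± 3756 (SD, n = 4 each) and a log2 fold change of -0.65 (SE 0.029, limma adjusted p = 3.2e-13). *Abca1*, the transporter that passes cholesterol to lipid-poor apolipoproteins (ENSMUSG00000015243, chr4:53030787-53159895, minus strand), had 12661, 11959.7, 11390.3 and 11219 in the control and 10608, 11520.1, 10719 and 10742 in the deficient TEMs. Deficient replicate 2 lay above the 2 lowest control samples, so that the groups overlapped, and the log2 fold change was -0.11 (SE 0.033, limma adjusted p = 0.0075). *Abcg1*, the transporter that passes cholesterol to mature lipoproteins, had 5921, 6105, 6111 and 6275 in the control and 6023, 5849, 5971 and 5916 in the deficient TEMs, which overlapped, and it did not pass (-0.039, adjusted p = 0.214). The ratio of *Abca1* to *Abcg1* overlapped as well (exact permutation p = 0.314, adjusted p = 0.429).

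The receptors themselves did not pass. *Nr1h2*, which encodes LXR beta, had 3698, 3746, 3776 and 3718 in the control and 3701, 3738, 3688 and 3763 in the deficient TEMs. *Nr1h3*, which encodes LXR alpha, had 961, 1063, 969.6 and 987 in the control and 1019, 1060.0, 991 and 1053 in the deficient TEMs. Both overlapped, with 95% intervals of -0.056 to 0.046 for *Nr1h2* and -0.036 to 0.14 for *Nr1h3*, and so did their ratio (exact permutation p = 0.2, adjusted p = 0.429). *Soat1*, which esterifies cholesterol for storage (ENSMUSG00000026600, chr1:156424525-156474331, minus strand), had 15901, 16371, 16447 and 15971 in the control and 17922, 17908, 18101 and 17004 in the deficient TEMs. All deficient samples were higher, by a log2 fold change of 0.13 (SE 0.023, limma adjusted p = 0.000101). *Mylip*, a ubiquitin ligase whose gene LXR switches on, had 5818, 6205, 6075 and 5731 in the control and 5674, 5549.6, 5652 and 5754 in the deficient TEMs, which overlapped at -0.074 (SE 0.027, limma adjusted p = 0.0326). This call was lost in 6 of 15 other settings, namely scaling to the total of reads and the omission of control replicate 2 or 3 or deficient replicate 1, 2 or 3 (log2 fold change from -0.075 to -0.054). *Stard4*, a carrier of cholesterol between membranes, differed by 0.062 (adjusted p = 0.342).

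The promoter windows of these genes, from 250 bases before to 50 bases after each start, were searched for the binding sequences of both transcription factor families on both strands. RefSeq sequences (GRCm38.p6) were found for 33 of the 41 genes, in 45 windows, and were not used here for *Fads1*, *Sqle*, *Fdps*, *Scd2*, *Scd1*, *Fdft1*, *Stard4* and *Abcg1*. A relaxed form of the DR4 element that LXR binds with its partner RXR, a direct repeat of GGTNA with 5 bases between, was present in 5 windows (11.1%), against 0.718% of all 32851 windows. The genes were picked as lipid genes under SREBP and LXR control, so that an excess of such elements is not separate evidence of that control. The 5 genes are shown because they did not move together. *Fasn* was higher, *Abca1*, *Elovl1* and *Srebf1* were lower, and *Acsl3* did not pass. The stretches are given 5′ to 3′ along the gene's strand with the match in capitals, on either strand. The stretches of *Srebf1* and *Elovl1* lie inside the gene, before an alternative RefSeq start, and the windows at the gene's own first start held no match. The stretches of *Abca1* and *Fasn* hold identical matches.
*Abca1* (chr4:53159928-53159982, minus strand, from 87 to 33 bases before the start): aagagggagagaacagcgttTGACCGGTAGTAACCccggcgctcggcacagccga
*Srebf1* (chr11:60210619-60210673, minus strand, from 202 to 148 bases before a RefSeq start inside the gene): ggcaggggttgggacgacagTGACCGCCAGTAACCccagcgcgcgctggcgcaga
*Elovl1* (chr4:118429517-118429571, plus strand, from 184 to 130 bases before a RefSeq start inside the gene): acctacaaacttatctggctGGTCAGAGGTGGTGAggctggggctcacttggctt
*Acsl3* (chr1:78657693-78657747, plus strand, from 132 to 78 bases before the start): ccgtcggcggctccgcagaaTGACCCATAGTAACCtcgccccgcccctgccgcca
*Fasn* (chr11:120824738-120824792, minus strand, from 245 to 191 bases before the start): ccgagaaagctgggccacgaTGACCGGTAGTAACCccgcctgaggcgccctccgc

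The core of the sterol regulatory element that SREBP binds was first spelled TCACNCCAC, which was present in 1 window of these genes (2.22%) and in 1.24% of all windows. A looser spelling, TCACNCCNC, was chosen after that count was seen and contains the first. It was present in 2 windows (4.44%), those of *Hmgcs1* and *Insig2*, and in 5.02% of all windows. The window of *Hmgcs1* is shown because it held 2 matches of the looser spelling, marked in capitals, the second of which also fits the first spelling.
*Hmgcs1* (chr13:119690111-119690242, plus strand, from 240 to 109 bases before the start): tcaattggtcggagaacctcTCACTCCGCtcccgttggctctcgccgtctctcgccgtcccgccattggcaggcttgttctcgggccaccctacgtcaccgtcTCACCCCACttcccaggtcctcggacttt
The CCAAT box (CCAAT), bound by a partner of SREBP, was present in 25 of the 45 windows (55.6%) and in 37.4% of all windows, and the E-box CACGTG, which SREBP-1 can also bind, in 8 (17.8%) and in 7.15%. These matches are descriptions of letters in short windows and were not tested as binding sites.

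Other genes of the same pathways, which are not among the 41, were examined beside them. Of 66 such genes 62 were in the table and 61 were tested, of which 21 were higher and 10 lower. The share past the threshold, 50.8%, was above the 41% of all tested genes. It was close to the 50.1% among tested genes with a mean normalized count of 200 or more. The log2 fold changes of these 61 genes had their median at 0.020. Among 9 tested genes of sterol synthesis and uptake, 3 were higher and 1 lower (44.4%). *Vldlr*, which encodes a receptor for triglyceride-rich lipoproteins, rose (0.32, adjusted p = 0.00104) and the thiolase gene *Acat1* fell (-0.16, adjusted p = 0.00397). Of 11 genes of SREBP processing and sterol sensing, 2 were higher and 1 lower (27.3%). *Pgrmc1* was at 0.12, the protease gene *Mbtps2* at 0.097 and *Ubxn8* at -0.18.

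Among 17 tested genes of fatty acid synthesis that are not among the 41, 5 were higher and 4 lower (52.9%). The background shares were 41% of all tested genes and 50.1% of those with a mean normalized count of 200 or more. The elongase gene *Elovl7* had 122 ± 13.0 normalized counts in the control and 179.6 ± 8.18 in the deficient TEMs (SD, n = 4, log2 fold change 0.56, adjusted p = 9.0e-05) and *Acss2*, which makes cytosolic acetyl-CoA from acetate, had 1162 ± 43.4 and 1611 ± 43.8 (0.47, adjusted p = 2.0e-09), and both rose. *Hacd3* (-0.29, adjusted p = 4.7e-08) and *Tecr* (-0.19, adjusted p = 2.5e-05), which carry out later steps of each elongation cycle, fell. Of 12 further LXR targets and partners, 5 were higher and 3 lower (66.7%). The corepressor gene *Ncor1* (0.24) and the LXR partner *Rxra* (0.23) rose, and *Pltp*, the phospholipid transfer protein (-0.39, adjusted p = 1.3e-11), and *Lpl*, the lipoprotein lipase (-0.30, adjusted p = 3.3e-08), fell as *Apoe* did. *Apoc1*, named after its values were seen, had few reads and a log2 fold change of -0.73 that did not pass (adjusted p = 0.0631). Of 12 genes of oxysterols and lysosomal cholesterol, 6 were higher and 1 lower (58.3%). *Ch25h*, which makes an oxysterol, was at 0.29 (limma adjusted p = 0.0212). The lysosomal exporter gene *Npc1* was at 0.13 (limma adjusted p = 9.8e-05) and *Stard3* at -0.14 (limma adjusted p = 0.000918).

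**Figure D4:**
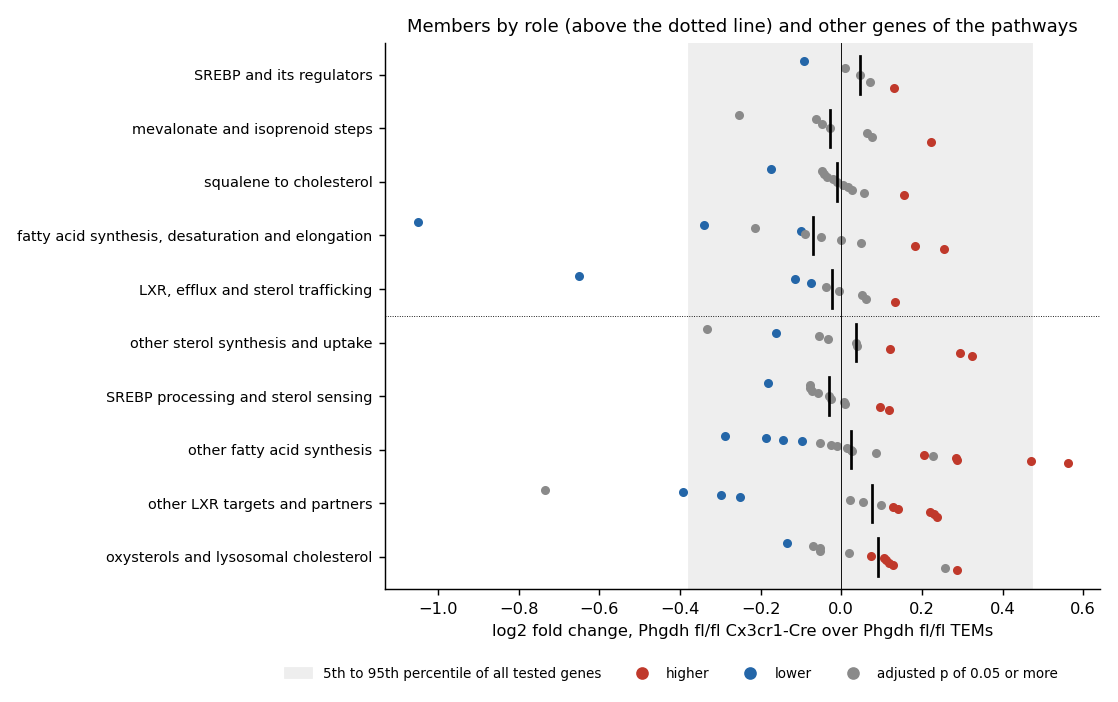
Log2 fold change (horizontal axis) of the 41 genes by role, above the dotted line, and of 61 other tested genes of the same pathways, below it. Each point is a gene, red where higher and blue where lower at an adjusted p under 0.05, the vertical black bars are list medians, and the shaded band from -0.38 to 0.47 holds the 5th to 95th percentiles of all 13629 tested genes. List medians lie close to 0, and most points lie inside the band.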

How the data were processed

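The 8 libraries were grouped by the genotype in their labels. The submitters' processing notes name TopHat2, HTSeq 0.6, DESeq2 and mm10. In the deposited table the samples hold a signal per gene, the number of reads over a size factor of the sample (called FPKM in the paper's methods). The deposited mean per gene, log2 fold change with its standard error, Wald score, p-value and adjusted p-value belong to the authors' own comparison and were not used.

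Whole reads were recovered for 100% of the values above 0, to within 0.01 of a whole number. The 13629 of 18635 genes whose normalized count averaged at least 10 entered a limma 3.58.1 fit under R 4.3.3 (eBayes with trend, two-sided, no covariate) on log2(normalized count + 1). This scale understates the fold change of genes with few reads, and the standard error (SE) and 95% intervals come from the same fit. Benjamini-Hochberg adjustment was over all genes tested. Ratios of related genes were tested by exact permutation over the 70 labelings in scipy 1.17.1. FPKM was computed from the recovered reads and GENCODE M21 exon lengths, and shared stretches of transcripts were found with BLAST 2.17.0. The counting's strand setting is not given in the sources used here, so that overlapping genes may have taken each other's reads. The samples are described as biological replicates, without a statement that each came from its own mouse, so that p-values measure the spread between these samples.

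All 41 genes are named. Values in every sample are given for the 4 genes with the largest absolute change past the threshold in each role, for the genes of the 7 pairs of related genes and for *Phgdh*. Of each list of other pathway genes, the 2 highest and 2 lowest past the threshold are named, except 1 gene that is not reported here. The 41 genes and the lists were chosen with earlier results of these data known. The alternatives were a pseudocount of 0.1, no filter, quantile normalization, scaling to the total of recovered reads, edgeR 4.0.16 and DESeq2 1.42.0 on the recovered reads, a replicate block and leaving out each sample in turn. The fits were tested on simulated counts in which 200 of the 13629 tested genes were changed. That is a far smaller share than the 41% past the threshold in the data. Each changed gene was given a larger difference than any of the 41 genes showed, *Scd1* and *Apoe* aside. Smaller differences, and so large a share of changed genes, were not covered by that simulation.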

Additional observations from a re-analysis of the deposited data

Results flagged for a closer look

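In each genotype, the highest or lowest of the 4 samples of each of the 41 genes was compared with the spread of the others by Dixon's criterion. Of the 82 groups of 4 samples looked at, 5 held a sample that stood apart, where chance gives about 1 in 20 groups, or 4.1. For *Hmgcs1* it was control replicate 4, at 1551 normalized counts against 1621 to 1634 in the other control samples. For *Mvk* it was PHGDH-deficient replicate 2, at 294 against 313 to 316. For *Abca1* it was deficient replicate 2, at 11520.1 against 10608 to 10742, the sample that made the groups overlap. For *Stard4* it was control replicate 1, at 1043 against 899 to 924, and deficient replicate 3, at 1075 against 955 to 966. No sample stood apart in more than 2 of these genes, and *Abca1* was the only one of the 4 genes that differed between the genotypes.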

How the results depend on the processing

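Of the 14 genes past the threshold, 10 passed in all 15 other settings, and *Srebf1*, *Insig1*, *Sqle* and *Mylip* did not. No gene of the 14 changed sign in any of them. Between 5 and 7 of the 41 genes were called higher and between 6 and 8 lower. Over all tested genes, 4967 to 5944 were called, 5608 with edgeR and 5066 with DESeq2, both on recovered reads. With total-read scaling, the median of all genes moved from -0.0018 to 0.013. Of the 27 genes that did not pass, 25 passed in no setting. *Srebf2* passed without control replicate 1 (0.077) and *Insig2* with scaling to total reads (0.086). The sign changed with scaling to total reads for *Fdft1* (0.0055) and *Nr1h2* (0.010) and with quantile normalization for *Elovl5* (-0.015), none of them past the threshold. With samples left out in turn, the value ranged over both signs for *Scap* (-0.0027 to 0.023), *Acat2* (-0.12 to 0.0070), *Fdps* (-0.014 to 0.14), *Fdft1* (-0.051 to 0.038), *Cyp51* (-0.0039 to 0.052), *Tm7sf2* (-0.014 to 0.076), *Hsd17b7* (-0.070 to 0.022), *Ebp* (-0.023 to 0.032), *Elovl5* (-0.0086 to 0.0095) and *Nr1h2* (-0.0099 to 0.00065), again without passing. The cause was not tested. Few reads limit *Scd1*, *Fads2*, *Idi1* and *Fdps*.

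With the replicate number as a block, 5597 genes were called, with 6 of the 41 genes higher and 8 lower. The labels give no shared origin for samples of the same number. Deviations from the group means correlated at 0.063 to 0.13 between samples of the same number. Of the 8 samples, 5 were closest to their own number. Between unlike numbers the correlation was positive for replicates 1 and 4 (0.076 and 0.13) and for 2 and 3 (0.048 and 0.075). All other pairs were negative (-0.12 to -0.036), the same split as on the second principal component. The main fit held no term for this split, the replicate block takes it up, and its origin was not tested. Because positive correlations were not limited to the same number, the numbers were not taken as pairs.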

Other observations

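Summed over a role, the normalized counts (mean ± SD, n = 4 each) differed little between the genotypes outside the group that holds *Apoe*. For the SREBP system the sum was 10663 ± 284 in the control and 10829.7 ± 147 in the deficient TEMs. The mevalonate and isoprenoid steps gave 3524 ± 65.8 in the control and 3619 ± 35.1 in the deficient TEMs, and the steps from squalene to cholesterol 9159 ± 69.9 in the control and 9115 ± 204 in the deficient TEMs. For fatty acid synthesis, desaturation and elongation, where *Scd2*, *Fads1* and *Elovl5* have many of the reads, it was 16742 ± 251 in the control and 15959 ± 109 in the deficient TEMs. These sums did not overlap between the genotypes (ratio of means 0.953). *Scd2* alone went from a mean of 4407 to 3483, while *Fasn* and *Acaca* rose. The LXR, efflux and trafficking genes gave 194478 ± 4968 in the control and 140800.0 ± 4172 in the deficient TEMs, most of it *Apoe*. Among the 13629 tested genes ordered from the lowest log2 fold change, *Scd1* took place 69, *Apoe* 226 and *Scd2* 813, while *Fasn*, the highest of the 41 genes, took place 1741 from the top. These are descriptions without a test.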
